A study of Homo sapiens with 4 samples.

Results

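The NRF2 targets and other redox defence genes were compared between C14orf159 knockout cells and control cells of HCT116, a human colorectal carcinoma line that is long established. The module held 34 of the 26255 genes listed in each library. They were chosen by name for their role in this pathway, with earlier results of these data known. The labels describe the control cells (EV control) as having received an empty vector, while the file headers name these columns AAVS1. The other cells are labelled as knockouts (KO) of C14orf159, also called DGLUCY, and their columns are headed sgDGLUCY. Each group held 2 libraries of stranded, poly(A)-selected RNA, numbered as in the labels. The labels do not say whether the replicates came from separate cultures or clones, so the p-values reflect the variation among 4 libraries, part or all of which may be technical. No treatment, time point or passage is given for either group.

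NRF2, encoded by NFE2L2, is the transcription factor that sets the basal and induced level of many antioxidant enzymes. KEAP1 holds it in the cytosol and hands it to a CUL3 ubiquitin ligase, until oxidants or electrophiles modify cysteines of KEAP1 and NRF2 accumulates. NRF2 then pairs with a small MAF protein on antioxidant response elements. Its targets make and recycle glutathione, reduce thioredoxin, supply NADPH, reduce quinones and carbonyls, and handle haem and iron.

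Levels are given as FPKM (fragments per kilobase of transcript per mega (M) fragments), which are per length. Comparisons of levels between genes remain approximate, since the difference between the KO libraries still moved with transcript length (below). Differences are KO minus EV control in log2(FPKM + 1), a scale that shrinks the changes of genes with low levels. The libraries held an estimated 12.47 to 13.39 M fragments. The estimate used only values inside a set window, which confines it in every library, so it does not show that depth was equal. A gene was tested if it reached 1 FPKM in at least 2 of the 4 libraries, which 12701 genes and 29 of the 34 members did. C14orf159, the targeted gene, stood at 16.2 and 16.4 FPKM in the EV controls, 2.52 in KO replicate 1 and 10.8 in KO replicate 2. The transcript was thus lower in both KO libraries, though far less so in replicate 2. Its difference was -1.42 (SE 0.57; limma-trend, unadjusted p = 0.0554, Benjamini-Hochberg adjusted p = 0.314). The epithelial genes EPCAM, KRT8, KRT18, KRT19, CDH1 and CDX2 were present in all libraries, from 8.01 FPKM (CDX2) to 1540 FPKM (KRT8), whereas VIL1 was at or near 0. Of 9 markers of other cell types, PTPRC, CD3E and DCN were listed at 0 throughout and the highest value was 0.327 FPKM (ALB).

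In the KO libraries the cystine importer SLC7A11 stood at 51.4% of the EV control level, the glutathione synthesis subunit GCLM at 72.5%, NQO1 at 77.1%, KEAP1 at 82.8%, TXNRD1 at 83.5% and SOD2 at 84.8%, while catalase stood at 115.9%. No member passed the test over all genes (limma-trend, Benjamini-Hochberg adjusted p, smallest 0.204 for SLC7A11), a call that 14 genes, or 0.11% of those tested, received. At an unadjusted p under 0.05 (limma-trend) those 6 members were lower and CAT was higher. Among all tested genes 7.22% were lower and 9.23% higher at that level, against 20.7% and 3.45% of the members. Since the members were chosen with earlier results of these data known, this contrast is a description and not a test. In bulk RNA, fewer cells with a transcript and less of it per cell cannot be told apart. The median difference over the 29 tested members was -0.14, and over all tested genes 0.00307. The count depended on single libraries, as did the share of all genes. It was 2 lower and 0 higher without EV control replicate 1, where 1.56% of all tested genes were lower and 3.61% higher. Without EV control replicate 2 it was 1 and 0 (1.22% and 2.92% of all genes). Without KO replicate 1 it was 9 lower and 7 higher (16.8% and 21.8%), and without KO replicate 2 it was 17 lower and 1 higher (17.4% and 15.7%). Quantile normalization gave 9 lower and 0 higher (8.64% and 8.82%).

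**Figure D1:**
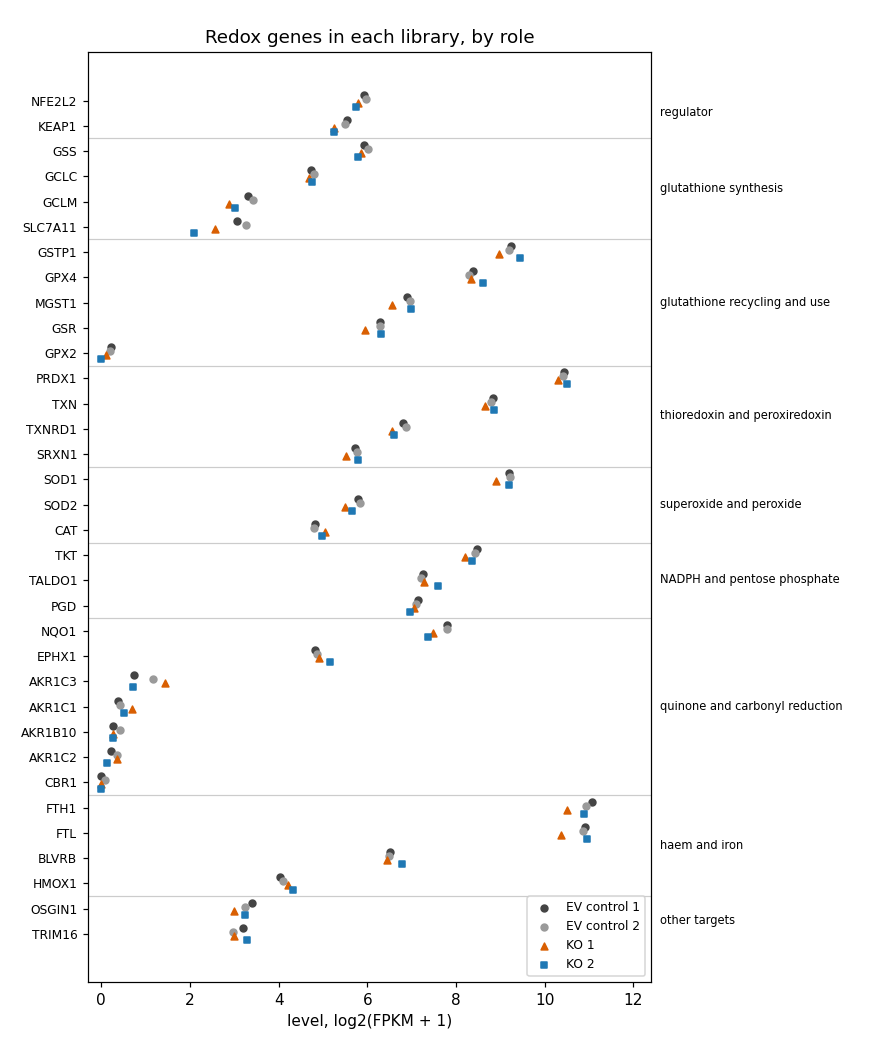
Level of the 34 redox genes in each library, as log2(FPKM + 1) on the horizontal axis, grouped by role; circles are the EV controls, triangles KO replicate 1 and squares KO replicate 2. FTH1, FTL and PRDX1 lay highest, and GPX2, CBR1, AKR1B10, AKR1C1 and AKR1C2 stayed under 1 FPKM in every library.

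Among the regulators, NFE2L2 stood at 59.9 and 61.5 FPKM in the EV controls and at 54.3 and 52.4 FPKM in KO replicates 1 and 2. Both KO libraries lay below both controls, and the difference was -0.18 (SE 0.075; limma-trend, unadjusted p = 0.0609, adjusted p = 0.323). KEAP1 stood at 45.4 and 43.9 FPKM in the EV controls and at 37.1 and 36.8 in the KO pair. Here too the groups did not overlap, and the KO libraries were nearly equal, with a difference of -0.27 (SE 0.074; limma-trend, unadjusted p = 0.0170, adjusted p = 0.232). The activator and its inhibitor thus both had lower transcript levels in KO cells, neither past the test. Exons of NFE2L2 overlap the gene AGPS on the opposite strand, and whether fragments were counted by strand is unknown here.

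Glutathione synthesis starts with the import of cystine by SLC7A11, the transport subunit of the cystine-glutamate exchanger. SLC7A11 stood at 7.36 and 8.54 FPKM in the EV controls, 4.90 in KO replicate 1 and 3.28 in KO replicate 2. Both KO libraries lay below the controls, KO replicate 2 the more so, and the difference was the largest among the tested members at -0.83 (SE 0.18; limma-trend, unadjusted p = 0.00699, adjusted p = 0.204). Its partner SLC3A2, the heavy chain that carries the exchanger to the surface, is described with the wider pathway below.

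The next step, joining glutamate and cysteine, is carried out by glutamate-cysteine ligase. GCLM, its modifier subunit, stood at 8.91 and 9.73 FPKM in the EV controls and at 6.41 and 7.09 FPKM in KO replicates 1 and 2. The groups did not overlap, and the difference was -0.41 (SE 0.099; limma-trend, unadjusted p = 0.00955, adjusted p = 0.208). GCLC, the catalytic subunit, stood at 25.4 and 26.9 FPKM in the EV controls and at 24.7 and 25.9 in the KO pair. These ranges overlapped, with a difference of -0.05 (SE 0.081; limma-trend, adjusted p = 0.797). GSS, which adds glycine in the final step, had 60.2 and 63.6 FPKM in the EV controls against 56.6 and 54.5 in the KO pair, without overlap (-0.15, SE 0.079; limma-trend, adjusted p = 0.397). Both KO libraries thus lay below both controls for SLC7A11, GCLM and GSS, a position that 25.6% of all tested genes shared, and not for GCLC.

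NRF2 binds antioxidant response elements, whose core was searched as TGACNNNGC on both strands of 300-base promoters from RefSeq (build GRCh38.p14, 250 bases before to 50 after each gene's start). A gene was counted if any of its promoters there held the core. Of the 26 members with a promoter in that table, 9 held the core, 34.6%, against 16.1% of all 27305 genes in it. As the members were chosen by name as NRF2 targets and redox genes, this contrast is a description and not a test. Of the 22 tested members there, 7 held it, 31.8%, against 19.6% of the 9349 tested genes there. They were GCLM, KEAP1 and TXNRD1, which were lower at an unadjusted p under 0.05, EPHX1, which lay above both controls in both KO libraries, PGD, which lay below them, and MGST1 and GSTP1, which were split. NQO1 and SOD2, lower at that level, did not hold these letters in this window. SLC7A11, also lower at that level, had no promoter in that table and was not searched. The matches of GCLM, KEAP1, TXNRD1 and GSTP1, whose mean level was nearly equal in the groups, are shown in 30-base windows read 5′ to 3′ along the gene's strand, with the core in capitals. Where the core lies on the opposite strand the capitals show its reverse complement.
GCLM, chr1:93909446-93909475, minus strand: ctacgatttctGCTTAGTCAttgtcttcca
KEAP1, chr19:10502784-10502813, minus strand: cgcccggctctGCTTAGTCAtggtgacctg
KEAP1, chr19:10502807-10502836, minus strand: gacttttattgTGACACGGCgggcgcccgg
TXNRD1, chr12:104215669-104215698, plus strand: tacacgggctaTGACTTCGCtgttgtcacc
TXNRD1, chr12:104286919-104286948, plus strand: agtggatttctGCTTTGTCAttctgactct
GSTP1, chr11:67583735-67583764, plus strand: ggccggcgccgTGACTCAGCactggggcgg
GCLM and KEAP1 carried the same site, GCTTAGTCA, which began 34 and 31 bases before their starts. The second KEAP1 site began 54 bases before the same start. The TXNRD1 sites began 99 and 102 bases before 2 alternative starts (a further match that runs across the former start is not shown), and the GSTP1 site 66 bases before its start. A match is a description of these letters and does not show that NRF2 bound there. The table's build differs from hg19, on which the deposited values rest.

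Quinones and carbonyls are reduced by NQO1 and the aldo-keto and carbonyl reductases. NQO1, a widely used readout of NRF2 that reduces quinones by transfer of a pair of electrons, stood at 221 and 222 FPKM in the EV controls, 178 in KO replicate 1 and 164 in KO replicate 2. Both KO libraries lay well below the nearly equal controls, and the difference was -0.37 (SE 0.089; limma-trend, unadjusted p = 0.00902, adjusted p = 0.208). EPHX1, the microsomal epoxide hydrolase, had 27.4 and 28.0 FPKM in the EV controls against 29.03 and 34.5 in the KO pair. It thus lay on the other side from NQO1, without overlap (0.19, SE 0.11; limma-trend, adjusted p = 0.439). Its exons overlap TMEM63A on the opposite strand.

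The other reductases were listed at low values. AKR1B10 ranged from 0.198 to 0.337 FPKM, AKR1C1 from 0.293 to 0.621 FPKM and AKR1C2 from 0.0856 to 0.280 FPKM over the 4 libraries. AKR1C3 was the sole AKR1C gene to reach the test, with 0.675 and 1.25 FPKM in the EV controls, 1.72 in KO replicate 1 and 0.640 in KO replicate 2 (0.12, SE 0.30; limma-trend, adjusted p = 0.859). The KO libraries lay on opposite sides of the controls. The AKR1C genes are close paralogs that can share reads, so these values are uncertain. CBR1, a carbonyl reductase, was listed at 0 in 3 libraries and at 0.060 FPKM in EV control replicate 2. Widely expressed genes such as TXNIP and NNT were listed at 0 in all 4 libraries, so a value at or near 0 need not give the level of the transcript.

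**Figure D2:**
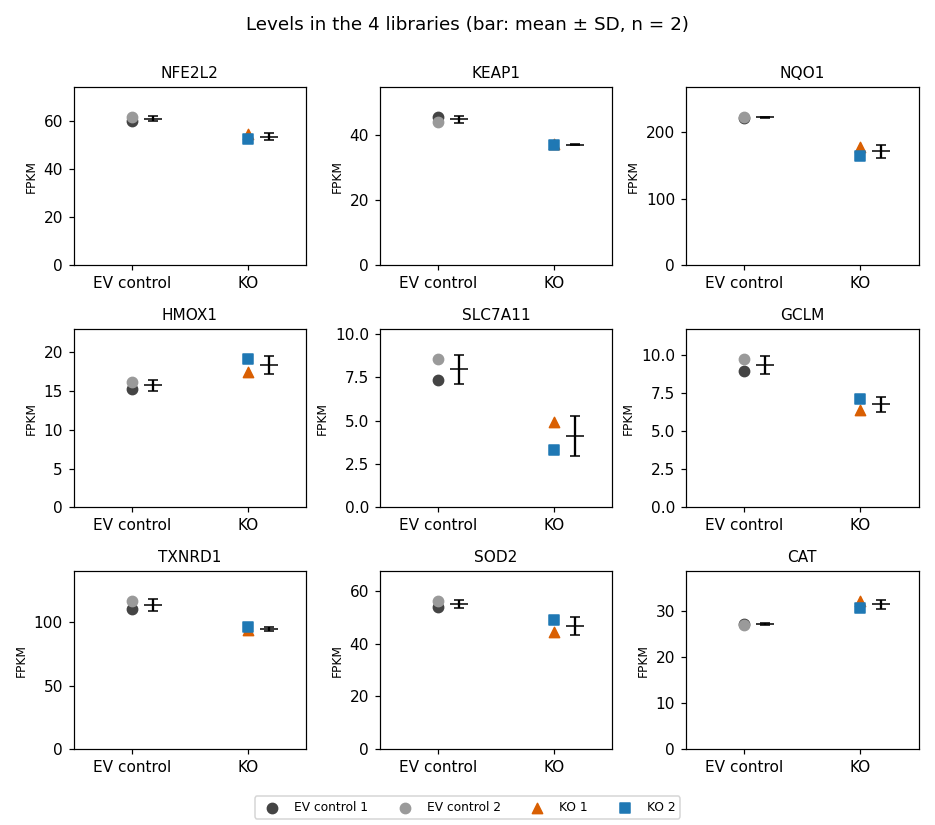
FPKM (vertical axes, from 0) of 9 redox genes in the 4 libraries, with the mean ± SD of each group beside the points (n = 2). KO libraries lay below both EV controls for NFE2L2, KEAP1, NQO1, SLC7A11, GCLM, TXNRD1 and SOD2, and above them for HMOX1 and CAT.

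In the thioredoxin system, TXNRD1, the cytosolic selenoprotein that reduces thioredoxin with NADPH, stood at 110.04 and 116 FPKM in the EV controls and at 93.3 and 95.6 in the KO pair. The KO values were close to each other and below both controls (-0.26, SE 0.080; limma-trend, unadjusted p = 0.0245, adjusted p = 0.251). Its substrate TXN had 456 and 444 FPKM in the EV controls, 401 in KO replicate 1 and 461 in KO replicate 2. SRXN1, which repairs overoxidised peroxiredoxins, had 51.7 and 53.3 FPKM in the EV controls, 44.8 in KO replicate 1 and 54.4 in KO replicate 2. PRDX1, an abundant peroxide-reducing enzyme, had 1389 and 1369.8 FPKM, 1255 and 1438 FPKM in the same order. For TXN, SRXN1 and PRDX1, KO replicate 1 lay below and KO replicate 2 above both controls, so the group means hide a split. Their adjusted p-values ran from 0.723 to 0.903 (limma-trend). Exons of PRDX1 overlap MMACHC on the opposite strand.

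Superoxide is turned into hydrogen peroxide by SOD1 in the cytosol and SOD2 in mitochondria, and catalase (CAT) destroys the peroxide. SOD2 stood at 53.9 and 56.1 FPKM in the EV controls and at 44.2 and 49.0 in the KO pair, without overlap (-0.24, SE 0.088; limma-trend, unadjusted p = 0.0456, adjusted p = 0.296). Its exons overlap ACAT2 and WTAP on the opposite strand, which makes its level uncertain. CAT stood at 27.2 and 27.0 FPKM in the EV controls and at 32.1 and 30.7 in the KO pair (0.21, SE 0.076; limma-trend, unadjusted p = 0.0437, adjusted p = 0.293). CAT was the 1 member higher at that unadjusted level. SOD1 had 585 and 596 FPKM in the EV controls, 480.3 in KO replicate 1 and 589 in KO replicate 2, so that KO replicate 1 alone stood apart.

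Of the 4 tested members that use and recycle glutathione, 0 had both KO libraries on the same side of both controls. GSR, which returns oxidised glutathione to its reduced form, had 76.4 and 77.0 FPKM in the EV controls, 61.1 in KO replicate 1 and 78.6 in KO replicate 2. The glutathione transferase GSTP1 had 606 and 580.4 FPKM in the EV controls, 503 in KO replicate 1 and 696 in KO replicate 2. MGST1, a membrane-bound transferase, had 119 and 123 FPKM, then 93.3 and 127 FPKM in the same order. In these 3 genes KO replicate 1 lay below and KO replicate 2 above both controls. GPX4, the selenoenzyme that reduces lipid hydroperoxides, had 332 and 314 FPKM in the EV controls, 325 in KO replicate 1 and 386 in KO replicate 2. Adjusted p-values of these 4 genes ran from 0.610 to 0.995 (limma-trend). GPX2, the gastrointestinal glutathione peroxidase, was at 0.156 and 0.152 FPKM in the EV controls, 0.0827 in KO replicate 1 and listed at 0 in KO replicate 2, too low to be tested.

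Among the genes of haem breakdown and iron storage, the ferritins FTH1 and FTL gave the highest levels of the module. HMOX1, the inducible haem oxygenase, stood at 15.2 and 16.2 FPKM in the EV controls and at 17.5 and 19.1 in the KO pair. Both KO libraries lay above the controls, opposite to NQO1 and GCLM (0.21, SE 0.089; limma-trend, unadjusted p = 0.0699, adjusted p = 0.338). The ferritin heavy chain FTH1 had 2126 and 1959 FPKM in the EV controls, 1441 in KO replicate 1 and 1889 in KO replicate 2 (-0.31, SE 0.18; limma-trend, adjusted p = 0.456). The light chain FTL had 1907 and 1866 FPKM in the EV controls, 1324 in KO replicate 1 and 1973 in KO replicate 2 (-0.22, SE 0.22; limma-trend, adjusted p = 0.642). In KO replicate 1 the ferritin chains thus stood at 70.6% and 70.2% of the EV control mean, and in KO replicate 2 at 92.5% and 104.6%. Ferritin genes have processed pseudogenes that can share reads, and the 3 such rows in the files (FTH1P3, FTH1P18, FTLP10) held at most 0.551 FPKM. BLVRB, a biliverdin reductase, had 90.7 and 88.8 FPKM in the EV controls, 85.8 in KO replicate 1 and 109.0 in KO replicate 2.

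Of the pentose phosphate enzymes, PGD, which makes NADPH, had 139.7 and 135 FPKM in the EV controls against 131 and 123 in the KO pair. TKT, a transketolase, had 356 and 343 FPKM in the EV controls against 295 and 325 in the KO pair. Both were lower without overlap. TALDO1, the transaldolase, had 153 and 146 FPKM in the EV controls against 155 and 191 in the KO pair, higher without overlap, though KO replicate 1 only just. Adjusted p-values of the 3 ran from 0.436 to 0.532 (limma-trend). OSGIN1, an oxidative stress response gene, ranged from 6.93 to 9.58 FPKM and TRIM16, a ubiquitin ligase of the TRIM family, from 6.87 to 8.76 FPKM, and in both the groups overlapped. TRIM16 has the close paralog TRIM16L, which can share its reads.

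Over the 29 tested members, 11 had both KO libraries below both EV controls and 4 (HMOX1, TALDO1, EPHX1 and CAT) had both above. These are 37.9% and 13.8% of the members, against 25.6% below and 26.5% above among all tested genes. With 2 libraries against 2, an exact permutation test of a single gene cannot give a two-sided p below 0.333. A further 8 members (GSR, TXN, SRXN1, PRDX1, FTL, MGST1, GSTP1 and BLVRB) had KO replicate 1 below and KO replicate 2 above both controls, 27.6% against 12.8% of all tested genes. The reverse held for AKR1C3 alone, 3.45% against 10% of all tested genes. As the members were chosen with earlier results known, these shares too are a description. The KO libraries lay outside the control range by 1.2-fold on each side for 0 members and for 1.43% of all tested genes. The replicates within each group also differed in spread: the median absolute log2 difference over the members was 0.054 between the EV controls and 0.24 between the KO libraries, and 0.073 and 0.17 over all tested genes.

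Each KO library was also set alone against the EV controls, its spread being taken from the controls. In KO replicate 1 the median member stood at 85.4% of the EV control mean, and the median tested gene at 99.5%. At an adjusted p under 0.05 (limma-trend), 10 members were lower in KO replicate 1 and 0 higher, where 6.94% of all tested genes were lower and 6.29% higher. They were SLC7A11 (-0.60), FTL (-0.51), FTH1 (-0.50), GCLM (-0.48), MGST1 (-0.37), GSR (-0.32), NQO1 (-0.31), SOD2 (-0.31), SOD1 (-0.30) and TXNRD1 (-0.27). In KO replicate 2 the median member stood at 99.7% of the EV control mean, and the median tested gene at 101.1%. There, 3 members were lower (SLC7A11 at -1.06, NQO1 at -0.43 and KEAP1 at -0.27) and 4 higher (TALDO1 at 0.35, EPHX1 at 0.31, BLVRB at 0.28 and GPX4 at 0.26), where 6.62% of all tested genes were lower and 10.9% higher. Both comparisons use the same controls and a lone KO library, so they describe these libraries and not the knockout.

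**Figure D3:**
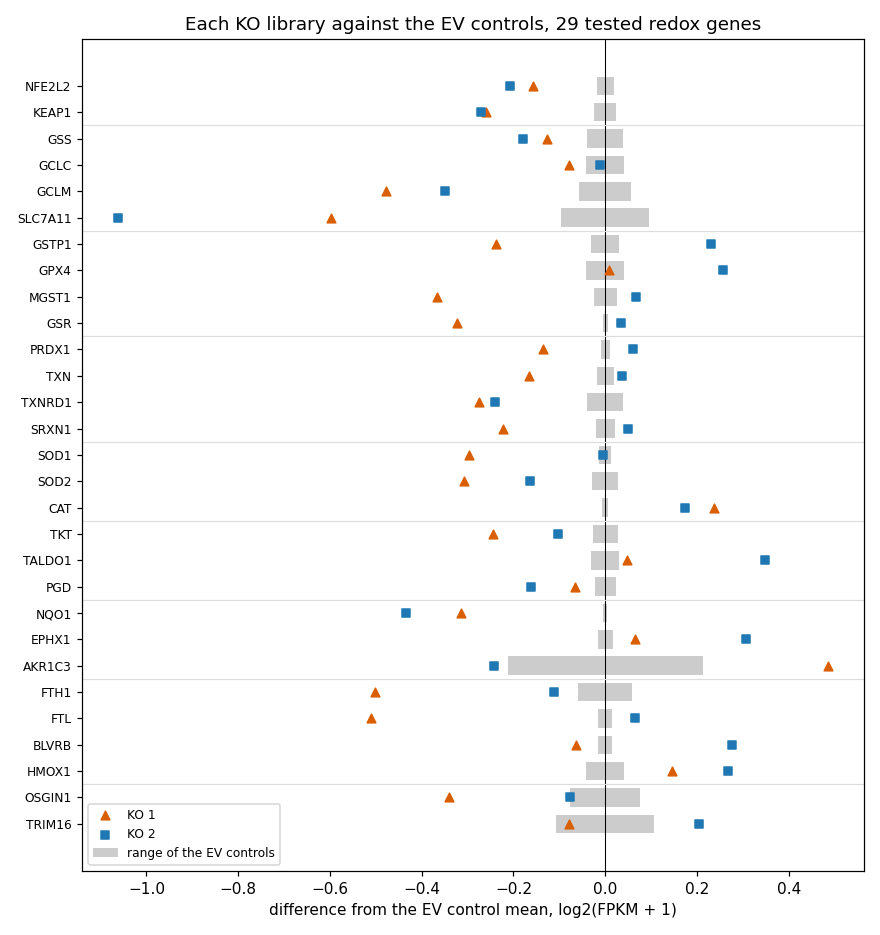
Difference of KO replicate 1 (triangles) and KO replicate 2 (squares) from the EV control mean, log2(FPKM + 1) on the horizontal axis, for the 29 tested redox genes; grey bars span the EV controls. SLC7A11, GCLM and NQO1 lay left of the bar in both KO libraries, while FTL, MGST1 and GSTP1 fell on opposite sides of it.

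The split between the KO libraries moved with transcript length. Of the 29 tested members, 21 had a higher level in KO replicate 2 than in KO replicate 1 (72.4%, against 52.1% of all tested genes). For the 7 members whose longest annotated transcript is under 1500 nt (GENCODE release 29), the median difference of KO replicate 2 from KO replicate 1 was 0.30, and for the other 22 it was 0.13. Over all tested genes with a length the same medians were 0.17 and 0.00347. The rank correlation of length with this difference was -0.46 over the 29 members and -0.29 over 12001 genes, in the same pair of libraries. The 76 tested ribosomal protein genes, short and abundant, had a median difference from the controls of -0.03 in KO replicate 1, against 0.26 in KO replicate 2. The part of length in the members' values was not tested.

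**Figure D4:**
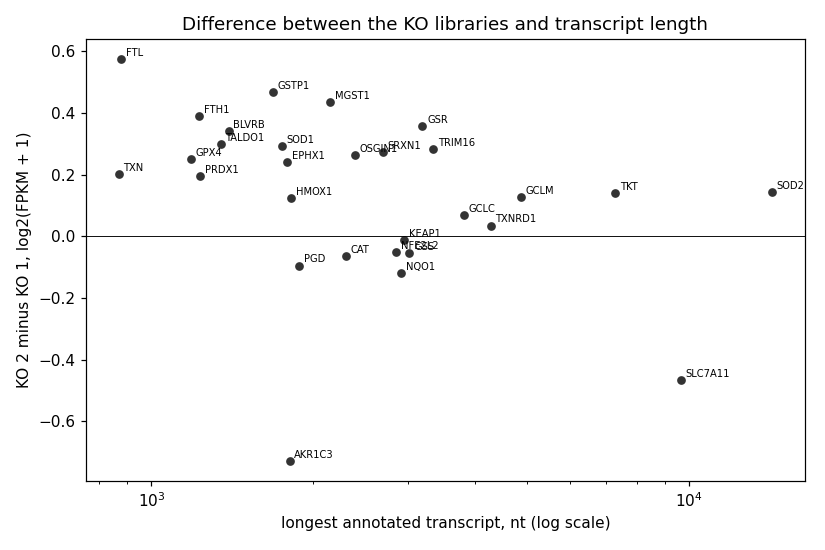
KO replicate 2 minus KO replicate 1 on the log2(FPKM + 1) scale (vertical axis) against the longest annotated transcript in nt (horizontal log axis), 1 point for each of the 29 tested redox genes. All 7 genes under 1500 nt lie above 0, from 0.20 for PRDX1 to 0.58 for FTL, while AKR1C3 and SLC7A11 lie lowest.

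The wider pathway was read from 171 further genes in 7 lists chosen by function, of which 145 were tested. At an unadjusted p under 0.05 (limma-trend), 15 were higher and 15 lower, 10.3% in each direction against 9.23% and 7.22% of all tested genes. None passed over all genes, the smallest adjusted p being 0.116 for BLVRA. The median difference over the 145 genes was -0.00178. Up to 3 genes with the smallest p-values are named from each list. CUL3, MAFG, SLC3A2, ME1 and the ABCC genes were chosen for their known role after the values were seen. From the glutathione list, every gene at the unadjusted level is named.

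At that level 0 of 16 tested regulators and partners of NRF2 were higher and 2 (12.5%) lower, against 9.23% and 7.22% of all genes. The 2 lower genes encode acetyltransferases. CREBBP had 8.24 ± 0.0976 FPKM in the controls and 6.13 ± 0.585 in the KO pair (SD, n = 2 per group). EP300 had 8.82 ± 0.583 and 6.75 ± 0.862 FPKM. NFE2L1, the related factor NRF1, had 59.9 ± 0.924 and 48.0 ± 7.85 FPKM (-0.32, SE 0.13; limma-trend, adjusted p = 0.315). CUL3, which builds the ligase for NRF2, had 18.7 and 19.6 FPKM in control and KO cells, and the small MAF partner MAFG 18.7 and 18.9 FPKM.

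Of 30 tested genes of glutathione turnover and transfer, 7 (23.3%) were higher and 5 (16.7%) lower at this level. The shares over all tested genes were 9.23% and 7.22%. The median difference over the 30 genes was 0.12. GLRX, a glutaredoxin that uses glutathione to reduce protein disulphides, stood at 27.6 and 25.3 FPKM in the EV controls and at 38.0 and 44.5 in the KO pair (0.62, SE 0.11; limma-trend, adjusted p = 0.175). GGT1, which breaks down extracellular glutathione, had 5.0 and 4.70 FPKM in the EV controls against 6.75 and 8.48 in the KO pair (0.55, SE 0.13; limma-trend, adjusted p = 0.208). SLC1A1, a transporter of glutamate and cysteine, had 5.09 and 4.59 FPKM in the EV controls, 13.6 in KO replicate 1 and 7.96 in KO replicate 2 (0.97, SE 0.24; limma-trend, adjusted p = 0.212). All 3 lay higher in both KO libraries, on the other side from SLC7A11. SLC3A2, the partner of SLC7A11, had 159.2 and 136 FPKM in control and KO cells (-0.23, SE 0.11; limma-trend, adjusted p = 0.365). The glutathione conjugate exporters ABCC1 (28.2 and 21.6 FPKM), ABCC2 (89.2 and 45.9 FPKM) and ABCC3 (13.5 and 9.78 FPKM) were among the 5 lower, and ABCC4 had 11.3 and 10.8 FPKM.

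**Figure D5:**
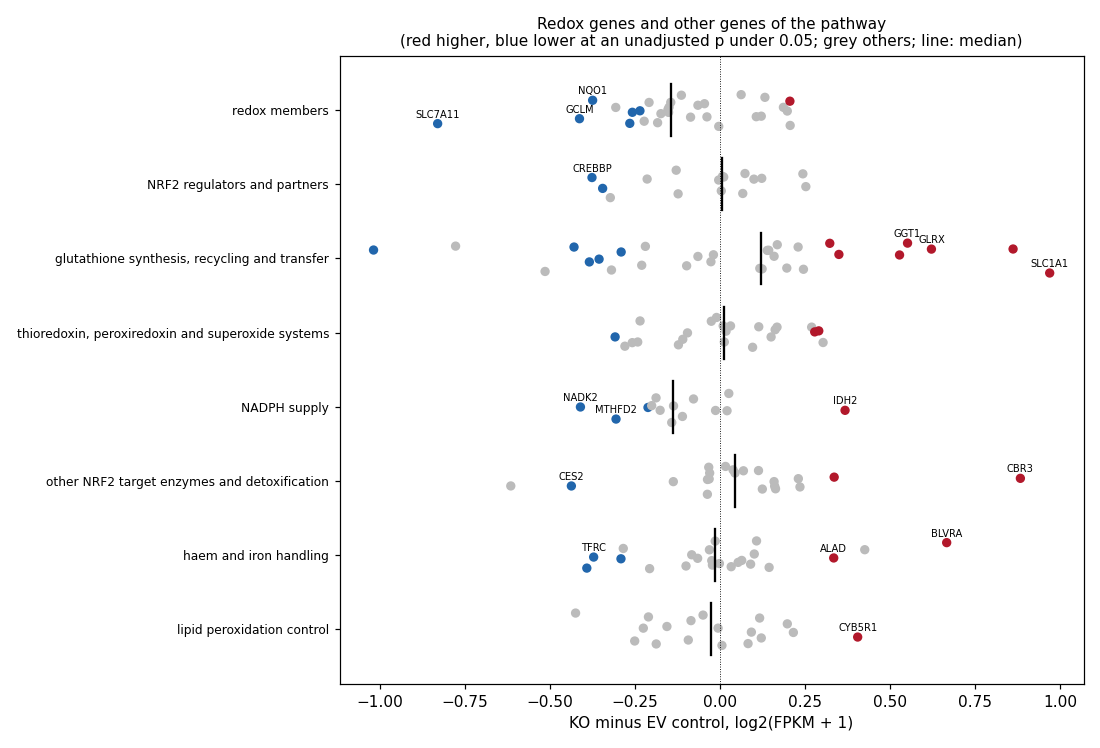
KO minus EV control, log2(FPKM + 1) on the horizontal axis, for the 29 tested redox genes and the 7 lists of further pathway genes; red and blue points have an unadjusted p under 0.05, grey points do not, and black lines are medians. The median of the redox genes lies at -0.14 and that of glutathione turnover at 0.12.

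Of 23 tested genes of haem and iron handling, 2 (8.7%) were higher and 3 (13%) lower at the unadjusted level. All tested genes gave 9.23% and 7.22%. BLVRA, the main biliverdin reductase, stood at 27.1 and 26.2 FPKM in the EV controls and at 43.3 and 42.4 in the KO pair. The replicates were close within each group, and the difference was 0.67 (SE 0.075; limma-trend, unadjusted p = 0.000358, adjusted p = 0.116). The member BLVRB, in contrast, was split between the KO libraries. TFRC, the transferrin receptor that imports iron, had 94.99 and 102 FPKM in the EV controls against 75.7 and 76.0 in the KO pair (-0.37, SE 0.081; limma-trend, adjusted p = 0.198). ALAD, an enzyme of haem synthesis, had 6.74 and 8.76 FPKM in control and KO cells (limma-trend, adjusted p = 0.236).

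Of 14 tested genes of NADPH supply, 1 (7.14%) was higher and 3 (21.4%) lower at the unadjusted level, with a median of -0.14. All tested genes gave 9.23% higher and 7.22% lower. IDH2, the mitochondrial NADP-dependent isocitrate dehydrogenase, had 24.9 and 32.4 FPKM in control and KO cells (0.37, SE 0.088; limma-trend, adjusted p = 0.208). NADK2, which makes mitochondrial NADP, had 9.39 and 6.81 FPKM (-0.41, SE 0.10; limma-trend, adjusted p = 0.209), and the mitochondrial folate enzyme MTHFD2 181 and 146 FPKM (-0.31, SE 0.088; limma-trend, adjusted p = 0.239). The NRF2 target ME1, the cytosolic malic enzyme, had 28.9 and 26.2 FPKM and did not pass at either level.

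For the remaining lists, too, the shares at the unadjusted level stand beside 9.23% higher and 7.22% lower among all tested genes. Of 21 tested other NRF2 target and detoxification enzymes, 2 (9.52%) were higher and 1 (4.76%) lower. CBR3, an inducible carbonyl reductase, had 1.06 and 1.18 FPKM in the EV controls against 2.57 and 3.28 in the KO pair (0.88, SE 0.15; limma-trend, adjusted p = 0.171). CBR4 had 10.9 and 14.1 FPKM in control and KO cells and the carboxylesterase CES2 15.1 and 10.98 FPKM. Of 23 tested thioredoxin, peroxiredoxin and superoxide genes, 2 (8.7%) were higher and 1 (4.35%) lower. Higher were TXNDC9 (11.5 and 14.3 FPKM) and the methionine sulphoxide reductase MSRB2 (9.23 and 11.4 FPKM). The lower gene was the sestrin SESN1 (8.64 and 6.81 FPKM). Of 18 tested genes of lipid peroxidation control, 1 (5.56%) was higher, CYB5R1 (10.4 and 14.1 FPKM), and 0 were lower. SECISBP2 (18.9 and 21.8 FPKM) and SEPSECS (4.34 and 3.57 FPKM), which serve selenoprotein synthesis, did not reach that level.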

How the data were processed

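Stranded mRNA libraries of total RNA were sequenced from 2 EV control and 2 KO samples of HCT116 cells, per the labels. The authors deposited FPKM per gene symbol, and no count of reads was used. Per the submitters' processing notes, the tools were Cuffnorm 2.2.1, SAMtools 0.1.19, TopHat2 2.0.13 and Bowtie2 2.2.3, on hg19. No source used here gives the annotation, whether strand was used, or how libraries were scaled to each other.

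The members and gene lists were chosen with earlier results of these data known. Values were transformed to log2(FPKM + 1). Genes with at least 1 FPKM in at least 2 libraries were fitted by limma-trend (limma 3.58.1, run in R 4.3.3), with group as the sole term and a threshold of 0.05 after Benjamini-Hochberg adjustment over all 12701 genes. The fit was run on simulated data with equal spread in every library and changes larger than any member showed. That run therefore does not check the fit for changes as small, or spread as unequal, as in these libraries. All members are accounted for, and up to 3 genes per pathway list with the smallest p-values are named, with a few others chosen after the values were seen. Depth was estimated from 1-fragment values of genes with a single GENCODE release 29 transcript of 1000 to 6000 nt (products of FPKM and kilobases between 0.06 and 0.1), which bounds it. Other alternatives were pseudocounts, filters, scalings, limma options, a replicate block, no small RNA genes and leaving out each library.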

Additional observations from a re-analysis of the deposited data

How the results depend on the processing

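Under the 10 alternatives that left out no library, all 29 tested members kept their direction wherever they were tested, and none passed over all genes. Genes called over the whole table, 7 higher and 7 lower, became 3 and 3 without a filter on low values, 3 higher in limma without the trend, 4 lower with quantile normalization and 0 and 0 without small RNA genes. With a replicate block, 4 genes were called higher, and the members at an unadjusted p under 0.05 became 0 higher and 3 lower. Of all tested genes, 7.55% were then higher and 4.59% lower at that level. The block rests on numbers alone, since same-numbered libraries did not deviate together (correlation of deviations -0.0046 over the tested genes). The 1 higher member was also lost (0) in limma without the trend and with quantile normalization. Of all tested genes, 9.14% and 8.82% were higher at that level under these settings, in that order.

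Leaving out a library in turn gave 6 to 1381 genes called higher and 5 to 881 lower, and 0 to 7 members higher and 1 to 17 lower at the unadjusted level, where the shares of all genes ran from 2.92% to 21.8% higher and from 1.22% to 17.4% lower. It gave 6 to 37 further pathway genes higher and 2 to 35 lower, and 4 to 14 members with the KO libraries above the controls and 12 to 22 below. Some members changed direction when a library was left out: GSR (-0.32 to 0.034), TXN (-0.17 to 0.036), SRXN1 (-0.22 to 0.050), PRDX1 (-0.14 to 0.060), AKR1C3 (-0.24 to 0.49), FTL (-0.51 to 0.065), MGST1 (-0.37 to 0.068), GSTP1 (-0.24 to 0.23), BLVRB (-0.064 to 0.28) and TRIM16 (-0.079 to 0.20). The cause was not tested. For the position above or below the controls, no share of all tested genes was taken with a library left out. A lone library in a group leaves fewer values to separate, so that position is easier to reach. The 4 to 14 and 12 to 22 members are therefore counts without a comparison, and whether they differ from other genes was not tested. If depth was near the estimate, values well under 1 FPKM stand for few fragments, and a value of 0 may not give the level.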
